A study of Mus musculus with 3 samples.

Results

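The genes of the BACH transcription factors, Bach2 and Bach1, were examined for binding of BACH2 and of the AP-1 subunit JunD in mouse induced regulatory T cells (iTreg cells). The members are all BACH2 and JunD peaks that overlap a window of mm9 chromosome 4 from 32300000 to 32700000, taken for Bach2, or a window of chromosome 16 from 87670000 to 87760000, taken for Bach1. They comprised 45 of the 14370 peaks in the deposited lists, of which 28 were among 9133 BACH2 peaks and 17 among 5237 JunD peaks. The Bach2 window held 24 BACH2 and 16 JunD peaks, and the Bach1 window held 4 BACH2 peaks and 1 JunD peak. Members were selected on position and on having passed the authors' peak calling, and the windows were picked with the peak lists in view, so the presence, number and strength of peaks in them are descriptions and were not tested.

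Chromatin immunoprecipitation followed by sequencing (ChIP-seq) had been run on wild-type C57BL/6 cells from the spleens of mice aged 8 to 12 weeks. CD4+ T cells were enriched, sorted and cultured for 4 days on plates coated with antibodies to CD3ε and CD28, with TGF-β in the medium. Cells of this description gave 3 libraries, namely 1 for BACH2, 1 for JunD and 1 input, which was not analysed here. Which of the 2 catalogue numbers listed with the JunD antibody was used for its library is unclear from the labels. All values below are the authors' own values for each peak, with no replicate error, and the read depth behind them is unknown.

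BACH1 and BACH2 are repressors of the CNC family of basic leucine zipper proteins. They bind DNA as heterodimers with small Maf proteins, at Maf recognition elements, whose core resembles the site bound by AP-1 dimers such as those containing JunD. BACH2 is expressed mainly in lymphocytes, where it restrains effector differentiation and supports regulatory T cells. BACH1 is widely expressed, responds to heme and represses the heme oxygenase gene Hmox1. A BACH2 peak at Bach2 is thus a case of a factor at its own gene, and a BACH2 peak at Bach1 one of a factor at the gene of its relative.

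The lists give no gene names and no mm9 annotation or sequence was used here, so no peak is assigned to an exon, an intron or a promoter. In the RefSeq gene order of GRCm38.p6, the protein-coding neighbours of Bach2 are Map3k7 and Gja10, and those of Bach1 are Map3k7cl and Grik1. How much of either window belongs to these neighbours was not analysed here. The sequence just upstream of Bach1 is shown because BACH2 and JunD binding at BACH genes is the subject, and because BACH factors read Maf recognition elements. It comprises the 250 bases before the RefSeq start of Bach1 on the plus strand of GRCm38.p6, chr16:87698704-87698953, with the only match to the motifs searched in capitals.
Bach1 upstream: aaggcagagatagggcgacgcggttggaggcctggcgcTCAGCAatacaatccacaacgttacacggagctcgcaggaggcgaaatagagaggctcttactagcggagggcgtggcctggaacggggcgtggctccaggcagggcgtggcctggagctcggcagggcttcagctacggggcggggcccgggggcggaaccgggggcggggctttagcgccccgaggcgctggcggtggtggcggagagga
The capitals mark TGCTGA, the first part of a Maf recognition element, read on the opposite strand, and its leftmost base lies 212 bases before the start. TGCTGA was found on either strand in 16.1% of 32851 such upstream sequences in the RefSeq table. The AP-1 core TGANTCA, found in 6.75% of them, and the cyclic AMP response element TGACGTCA, found in 1.55%, had no match in these letters. Coordinates of this build cannot be set beside the mm9 peak positions given below. The table's entry for Bach2 begins 179 kb inside that gene's model, so it is not shown as a promoter.

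BACH2 peaks were spread over most of the lower part of the Bach2 window and came in several groups. The strongest lay at 32336711 to 32338352, with an 18.9-fold enrichment, relative to the background estimated by the peak caller, and a −log10 q of 139.3, rank 103 of 9133. At 1642 bp it was also the second widest BACH2 peak of the whole list, whose median width was 267 bp. The next strongest lay at 32374896 to 32375405 (12.2-fold, −log10 q 76.7, rank 440) and at 32511325 to 32511749 (10.6-fold, −log10 q 61.3, rank 667). These 3 peaks all overlapped a JunD peak, as did 42.9% of all BACH2 peaks in the strongest quintile, and span 175 kb of the window. The fourth, at 32418013 to 32418378, had an 11.2-fold enrichment and a −log10 q of 48.4 and overlapped no JunD peak. It was the strongest of the BACH2 peaks in the window that lacked JunD, and the nearest JunD peak centre lay 12.7 kb from its summit.

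A second level of BACH2 peaks in the Bach2 window had −log10 q values between 16.98 and 47.3. It comprised peaks at 32344925 to 32345607 (10.5-fold, −log10 q 47.3), 32488465 to 32488747 (10.8-fold, −log10 q 37.7) and 32492622 to 32493266 (7.13-fold, −log10 q 34.1). With the 4 peaks above, these 3 made up the 7 members that ranked in the top quintile of BACH2 peaks. They were followed by peaks at 32378219 to 32378740 (5.72-fold, −log10 q 22.3), 32675274 to 32675526 (4.94-fold, −log10 q 21.5) and 32368494 to 32368996 (6.02-fold, −log10 q 16.98). Of these 6 peaks, only the last overlapped no JunD peak. In the whole list a JunD peak overlapped 29.3% of BACH2 peaks, and 42.9% of those in the strongest quintile. The other 14 BACH2 peaks of the window were weaker, with −log10 q from 1.47 to 12.5, and included the peak ranked 9123 of 9133.

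JunD peaks in the Bach2 window were led by 1 peak that coincided with the leading BACH2 peak. It lay at 32336665 to 32338456 and had a score of 749.5, rank 26 of 5237. JunD is an AP-1 subunit that pairs with Fos family and related proteins. The following JunD peaks lay at 32344660 to 32345810 (score 266), 32378080 to 32378995 (score 248), 32511017 to 32511919 (score 218) and 32675138 to 32675808 (score 181). Another 2 members of the strongest JunD quintile had scores of 157 (32374746 to 32375837) and 149 (32430498 to 32431277). A BACH2 peak overlapped each of these 7, as it did 67.8% of all JunD peaks in the strongest quintile. The remaining named peaks were those at 32492139 to 32492954 (score 115.6), 32450563 to 32451164 (score 84.1) and 32350647 to 32351541 (score 79.6), of which the middle 1 overlapped no BACH2 peak. The other 6 JunD peaks had scores from 50.8 to 77.6, all below the list median of 81.6.

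**Figure D1:**
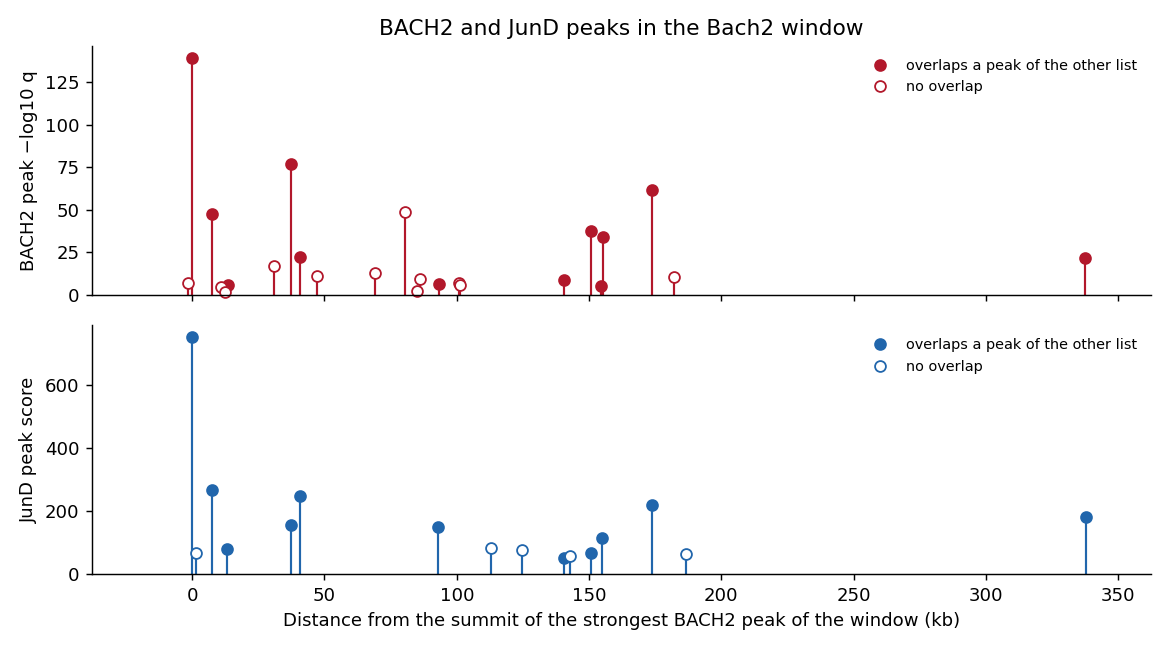
Strength of each BACH2 peak (upper panel, −log10 q) and JunD peak (lower panel, score) in the Bach2 window against its distance in kb from the summit of the strongest BACH2 peak, with filled points for peaks that overlap the other list. The leading peak of each factor stands at the same place, and a stretch of 150 kb just before the last pair on the right is empty of peaks.

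The scale of strength in the Bach2 window ran over nearly the whole of both lists. The strongest quintile of the BACH2 list, which holds 20.0% of its peaks, included 7 of the 24 BACH2 peaks, and the weaker 50% of the list included 13. Their median −log10 q was 10.6, against 11.8 in the whole list, and their median fold enrichment 5.33 against 5.75. The middle BACH2 peak of the window was thus slightly weaker than that of the list on both scales. Of the 16 JunD peaks, 7 were in the strongest quintile, which holds 20.0% of JunD peaks, and their median score was 99.8 against 81.6 in the whole list. As to width, 6 of 24 BACH2 peaks were at least 500 bp wide (9.19% of the list) and 3 of 16 JunD peaks at least 1000 bp (9.34% of the list).

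**Figure D2:**
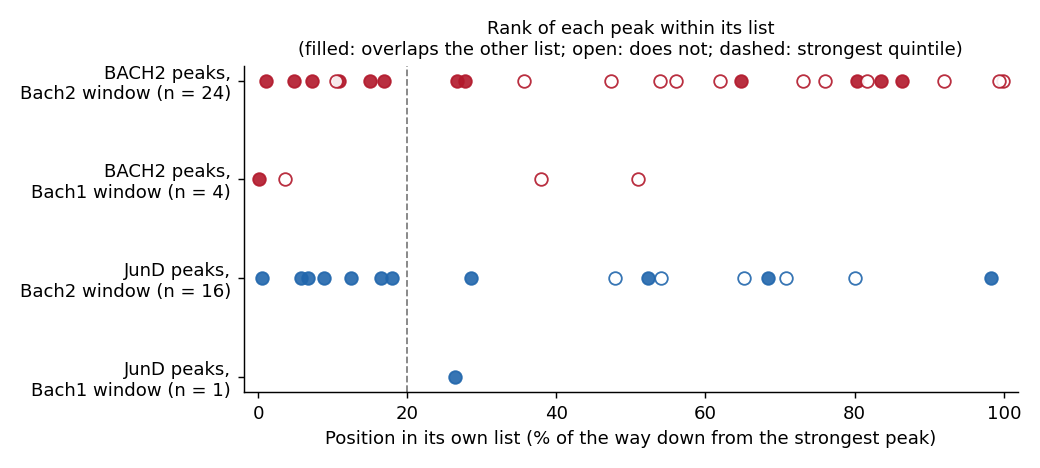
Position of each peak within its own list, in % of the way down from the strongest peak, for BACH2 (red) and JunD (blue) in the Bach2 and Bach1 windows, with filled points for peaks that overlap the other list and a dashed line at the end of the strongest quintile. In the Bach2 window, all 7 JunD peaks left of the line are filled, as are 6 of the 7 BACH2 peaks, while in the whole lists 67.8% of JunD and 42.9% of BACH2 peaks of the strongest quintile are overlapped.

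Peaks of both factors were dense in the Bach2 window. Its 24 BACH2 peaks amounted to 60.0 per Mb, against 3.23 per Mb on chromosome 4 as a whole and 3.47 per Mb over all chromosomes, counted up to the last peak. Its 16 JunD peaks amounted to 40.0 per Mb, against 1.94 and 1.99. When all chromosomes were divided into 6563 fixed stretches of 400 kb, the median stretch held no peak of either factor. At least 24 BACH2 peaks were found in 2 of these stretches (0.0305%), and at least 16 JunD peaks in 6 (0.0914%). The window was picked with the peak lists in view, and the stretches were cut at fixed positions that do not match its ends. These shares therefore only set its counts beside those of the stretches and are not a test. The adjoining 400 kb held 6 BACH2 and 4 JunD peaks on the lower side, and 3 BACH2 peaks and 0 JunD peaks on the upper side.

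**Figure D3:**
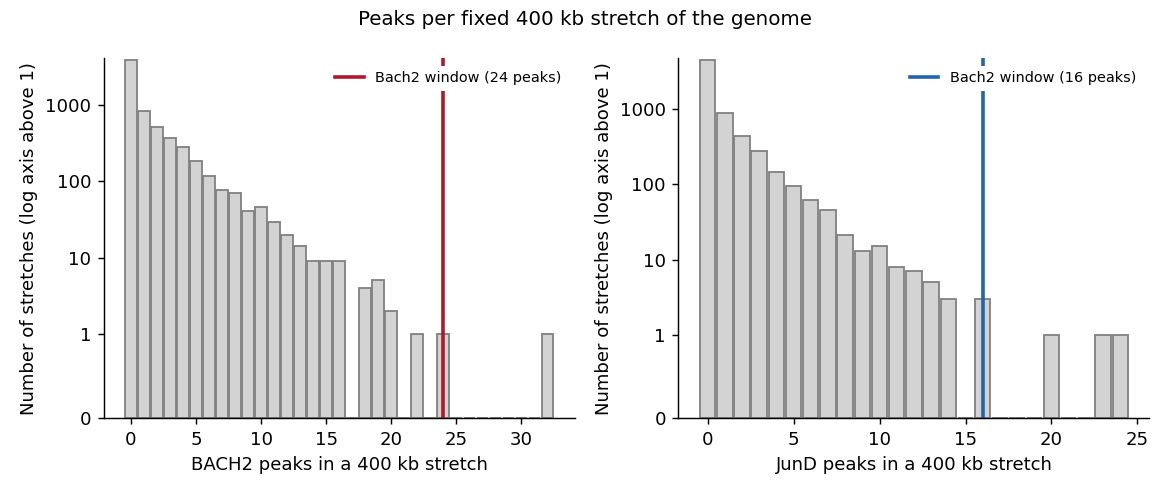
Number of fixed 400 kb stretches of the genome (vertical, log axis above 1) by the number of BACH2 peaks (left) or JunD peaks (right) they hold, with a line at the count in the Bach2 window. The lines at 24 and 16 stand in the far right of distributions whose median is 0.

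Within the window the peaks were uneven. Joining peaks of either list at most 10 kb apart gave 9 groups. The first, from 32336231 to 32351541, held 6 BACH2 and 4 JunD peaks in 15.3 kb, with the strongest peak of each factor. A group from 32418013 to 32439174 held 6 BACH2 peaks and 1 JunD peak, and 1 of the 6 was overlapped. All 4 BACH2 peaks of the group from 32478246 to 32493266 were overlapped, by 3 of its 4 JunD peaks. In the whole list 29.3% of BACH2 peaks were overlapped. These groups hold few peaks each, were picked as examples of unlike overlap, and their difference was not tested. From 32524711 to 32675137, a stretch of 150 kb, no peak of either factor was listed. The lower 50% of the window held 21 of the 24 BACH2 and 13 of the 16 JunD peaks.

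How many sites BACH2 and JunD shared in the Bach2 window depended on the overlap required. A JunD peak overlapped 12 of its 24 BACH2 peaks by at least 1 bp, or 50% (exact Clopper-Pearson 95% interval 29.1 to 70.9%, which covers the counting of peaks only), against 29.3% of all BACH2 peaks. A BACH2 peak overlapped 11 of its 16 JunD peaks, or 68.8% (41.3 to 89.0%), against 48.8% of all JunD peaks. The whole-list share of BACH2 lay at the lower end of its interval, and that of JunD also lay inside. With at least 50% of the BACH2 peak covered, the window's shares stayed at 50% and 68.8%. With every peak set to 200 bp, they were 33.3% for BACH2 and 50% for JunD. The whole lists were not counted under these rules. Under the stricter rules that follow, the window was near the list. With 50% of both peaks covered, 16.7% of its BACH2 and 25% of its JunD peaks were shared, against 15.3% and 26.6% of the lists. With the summit within 100 bp of the JunD centre, the shares were 25% and 37.5%, against 20.6% and 35.9%.

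Overlapped BACH2 peaks of the Bach2 window had a median −log10 q of 28.2, with a range from 5.23 to 139.3, and the 12 others a median of 8.21, from 1.47 to 48.4. These ranges overlapped widely. The 11 overlapped JunD peaks had a median score of 157, from 50.8 to 749.5, and the 5 others a median of 68.3, from 59.2 to 84.1. In the whole lists the same medians were 15.7 and 10.9 for BACH2 and 96.9 and 72.7 for JunD, the same order as in the window.

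The pairing of strengths varied from site to site. At 32336711 both factors were near the top of their lists, with BACH2 rank 103 and JunD rank 26. At 32430857 a weak BACH2 peak (3.64-fold, rank 7330) met a JunD peak of rank 938, whereas at 32488465 a BACH2 peak of rank 1373 overlapped a weak JunD peak (score 66.2, rank 3579). Over the 12 overlapping pairs, Spearman's rho between BACH2 −log10 q and JunD score was 0.58, and 0.46 without the strongest BACH2 peak, against 0.055 over all 2677 pairs of the series. These correlations are descriptions across sites of the same pair of libraries, and 2 of the 12 pairs share a JunD peak. A rho over 12 pairs is imprecise, and its difference from that over all pairs was not tested.

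BACH2 summits lay near the middle of the JunD peaks in some pairs and off centre in others. The median distance from summit to JunD centre was 96 bp over the 12 pairs, with a range from 20 to 591 bp, against 55 bp over all pairs. It was at most 100 bp in 6 of the 12, against 70.2% of all pairs. The 2 largest distances, 300 and 591 bp, belonged to BACH2 peaks at 32492125 and 32492622, which share the JunD peak at 32492139, whose centre fell between their summits. At the leading site the BACH2 summit lay 239 bp above the JunD centre, within a JunD peak of 1792 bp.

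Several BACH2 peaks of the Bach2 window were close doublets. There were 5 pairs of neighbours at most 1 kb apart, with summits 544 to 1486 bp from each other, and in 4 of the 5 the second peak was the stronger. Such pairs were not counted in the whole list, so whether they are more frequent in this window is unknown. The largest summit distance belonged to the leading peak, itself 1642 bp wide, and a weak peak at 32336231 to 32336408 (3.68-fold), which ended 302 bp below it. The only such JunD pair joined the leading JunD peak to a peak of score 68.3 at 32338931 to 32339629, which overlapped no BACH2 peak. The 5 JunD peaks without BACH2 in the window lay 1.48 to 16.1 kb from the nearest BACH2 summit, with a median of 4.75 kb. The median for such JunD peaks in the whole list was 23.8 kb. The window was picked with its peaks in view and holds 60.0 BACH2 peaks per Mb, against 3.47 over all chromosomes. Whether the shorter distance is a trait of these JunD peaks apart from that density was not tested.

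Fold enrichment and −log10 q did not order the BACH2 members alike. The peak at 32675274 had a 4.94-fold enrichment, rank 5876, but a −log10 q of 21.5, rank 2539, and the peak at 32519704 had a 6.76-fold enrichment, rank 3273, but a −log10 q of 10.3, rank 5114. Of the 24 members, 15 ranked higher by −log10 q than by fold, against 47.2% of the whole list. Among the overlapped members the count was 9 of 12 and among the others 6 of 12, against 66.9% of overlapped and 39.0% of other peaks in the whole list. By fold, 6 of the 24 were in the strongest quintile, against 7 by −log10 q.

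**Figure D4:**
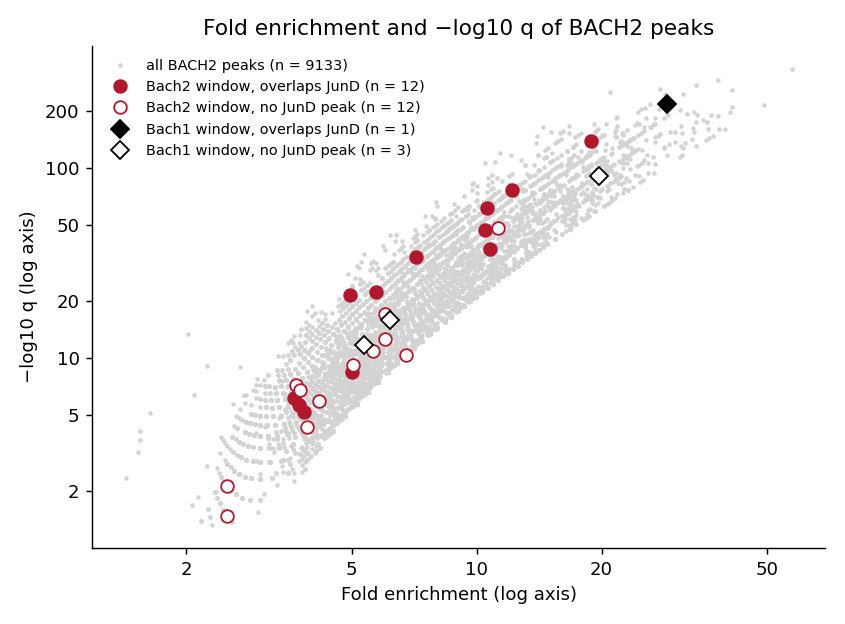
Fold enrichment (horizontal, log axis) and −log10 q (vertical, log axis) of all 9133 BACH2 peaks in grey, with peaks of the Bach2 window as circles and of the Bach1 window as diamonds, filled where a JunD peak overlaps. The members run from the bottom of the list to near its top, and the peak of 28.8-fold enrichment in the Bach1 window is the highest of them.

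The Bach1 window held few peaks, but its leading BACH2 peak was stronger than any in the Bach2 window. This peak lay at 87713104 to 87713969, was enriched 28.8-fold, had a −log10 q of 217.2, rank 9 of 9133, and was 866 bp wide. It overlapped the only JunD peak of the window, at 87713049 to 87713605, which had a score of 120.9 and rank 1384 of 5237. The BACH2 summit lay 68 bp from the JunD centre, and the centre of the BACH2 peak 210 bp from it. The order of the windows thus differed between the factors, since the leading JunD peak of the Bach2 window had a score of 749.5 and its leading BACH2 peak an 18.9-fold enrichment. The lists carry different scores, so these values were compared within a factor only.

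The second BACH2 peak of the Bach1 window, at 87700024 to 87700728, had a 19.7-fold enrichment and a −log10 q of 90.4, rank 329. No JunD peak overlapped it, and the nearest JunD centre was that of the leading peak, 13.0 kb away. Its fold was close to the 18.9 of the leading peak in the Bach2 window, while its −log10 q was lower, at 90.4 against 139.3. A weaker BACH2 peak at 87699592 to 87699947 (5.35-fold, −log10 q 11.7) ended 76 bp before it, with summits 519 bp apart. The fourth, at 87725141 to 87725403, had a 6.19-fold enrichment and a −log10 q of 15.8. Of the 4 peaks, 2 were in the strongest quintile (20.0% of the list) and 1 was overlapped by JunD (29.3% of the list), and with 4 peaks the interval of the overlapped share ran from 0.631 to 80.6%.

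**Figure D5:**
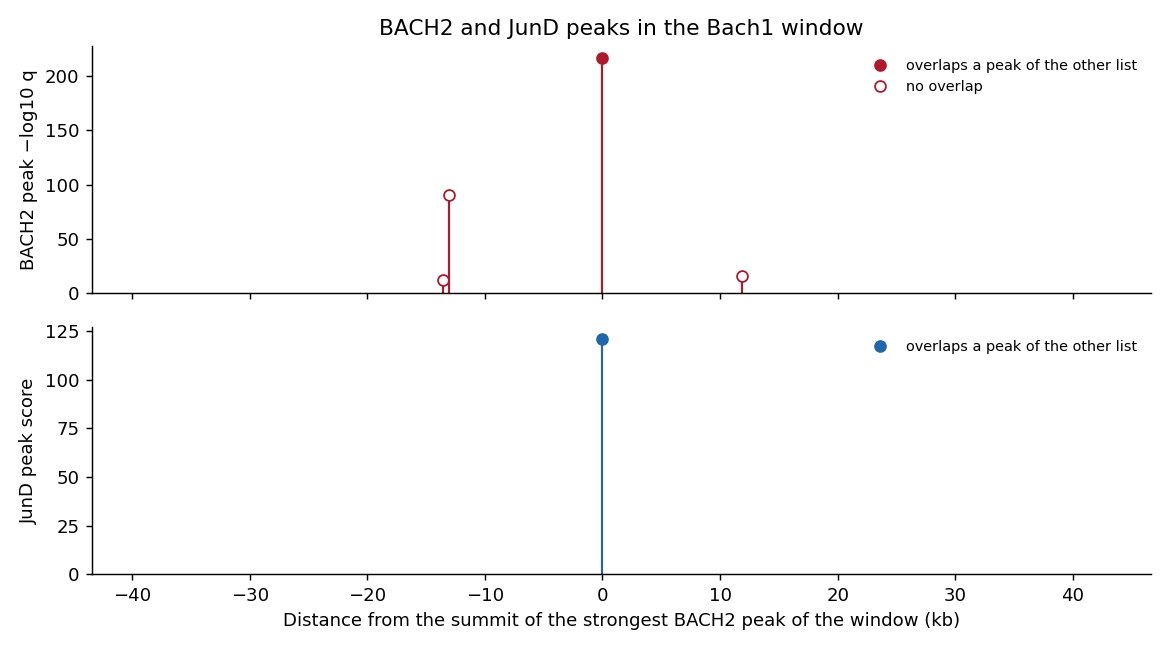
Strength of each BACH2 peak (upper panel, −log10 q) and of the JunD peak (lower panel, score) in the Bach1 window against its distance in kb from the summit of the strongest BACH2 peak, with filled points for peaks that overlap the other list. The 4 BACH2 peaks stand at 3 places, and JunD has a peak only at the tallest of them.

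The BACH2 peaks of the Bach1 window were compact, all lying within 25.8 kb. They amounted to 44.4 per Mb, against 3.67 per Mb on chromosome 16. Of 29191 fixed stretches of 90 kb, 507 (1.74%) held at least 4 BACH2 peaks and 3237 (11.1%) at least 1 JunD peak. Most stretches were empty, 83.2% of them of BACH2 peaks and 88.9% of JunD peaks. The Bach1 window too was picked with the peak lists in view, so these shares are not a test. The adjoining 90 kb held 2 BACH2 peaks on the lower side and no peak of either factor on the upper side. Beyond that, the next BACH2 peak on the upper side lay 2.09 Mb from the window's end, and the next JunD peaks lay 2.96 Mb below and 2.21 Mb above the window. The JunD peak of the Bach1 window was therefore the only 1 listed over 5.26 Mb of chromosome 16.

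The window ends fell between peaks. The nearest BACH2 peak below the Bach2 window, 32.9 kb from its end, lay at 32266637 to 32267056 and was strong (16.5-fold, rank 516) and overlapped by a JunD peak of score 102.2. The first BACH2 peak inside the lower end was the weak peak at 32336231 described above, and the first JunD peak was the leading one. At the upper end, the last pair inside was that at 32675274, and the next BACH2 peak outside, 294 kb away, had an 18.1-fold enrichment and no JunD overlap. The nearest JunD peak above the window lay 630 kb away, with a score of 63.6. Below the Bach1 window, a BACH2 peak 8.30 kb from its end had a 3.63-fold enrichment and rank 9016, against rank 4648 for the first member inside.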

How the data were processed

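Peak lists of 1 BACH2 and 1 JunD ChIP-seq library were used as deposited. The submitters' processing notes name Bowtie 0.12.9 for alignment and mm9 (NCBIM37) as the build. The control of the peak caller, its version and any pooling were not given in the sources used here. The BACH2 list the authors deposited gives, as read from the narrowPeak layout, a fold enrichment, a −log10 p, a −log10 q and a summit per peak. The JunD list the authors deposited gives a score per peak, of unstated scale, and names that begin with MACS. Positions are mm9, counted from 1.

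Members were ranked within their own list by −log10 q or score, and quintile 1 is the strongest. Overlap meant at least 1 bp. The 10 strongest peaks of each factor and window were named, as were the nearest peaks outside. The members, lists and rules were chosen with earlier results of these data known. No test was run, since each factor had 1 library. The script that counts overlaps was checked on simulated lists with a known number of overlaps planted, which is no test of chance. The planned placement in genes, and the related genes, needed mm9 positions and were not run. Software was scipy 1.17.1, pandas 2.3.3, numpy 2.4.6 and matplotlib 3.10.9 under Python 3.11.15.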

Additional observations from a re-analysis of the deposited data

How the results depend on the processing

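The count of peaks in the Bach2 window stayed within 1.5 times when its ends moved by 10% of its length or when neighbours at most 1 kb apart were joined. Keeping only the stronger 50% of each list left 11 BACH2 and 9 JunD peaks there. The overlapped share in the Bach2 window depended on the overlap required. With 50% of both peaks covered it was 16.7% for BACH2 and 25% for JunD, and with the summit within 100 bp of the JunD centre it was 25% and 37.5%. The whole lists gave 15.3% and 26.6% under the first rule and 20.6% and 35.9% under the second. Under the other alternatives it lay within the interval of the reported share, as did the share in the strongest quintile, also when BACH2 peaks were ranked by fold. In the Bach1 window, the single summit-to-centre distance was 210 bp with the BACH2 peak's centre in place of its summit. No paired analysis was possible because BACH2 and JunD had 1 library each. Weaker sites, under the thresholds of peak calling, cannot be seen here, and depth is unknown.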
